A study of Mus musculus with 17 samples.

Results

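The genes for tensin 1 (Tns1), tensin 3 (Tns3), the membrane-bending protein Mtss1 and the class I myosins Myo1e, Myo1f and Myo1g were examined in peritoneal macrophages (PMs) treated with the HIV protein Tat. They were chosen by gene symbol, 6 of the 21683 genes listed, and all 6 were among the 10451 genes that reached 1 TPM in 5 or more libraries and were tested (TPM, transcript abundance normalized for length and library total). The list was selected on results of these data, among them the low levels of Tns1 and Mtss1 after Tat, so the levels with Tat against PBS are given for the 6 genes as a description and carry no test.

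RNA-Seq was performed on thioglycollate-elicited PMs of eight-week-old C57BL/6 mice, all of which carried loxP-flanked (F/F) alleles of the gene for IKKβ, the kinase that activates canonical NF-κB. IKKβ F/F PMs received PBS (F/F PBS, n = 6 libraries) or recombinant Tat at 100 nM (F/F Tat, n = 6). PMs of IKKβ ΔMye mice, in which Cre made under the lysozyme M promoter deletes IKKβ in myeloid cells, received 100 nM Tat (ΔMye Tat, n = 5). Treatment lasted 12 h and followed 4 h of attachment, and the control was PBS and not a mock protein preparation. ΔMye PMs given PBS were not analysed here, so a difference between the Tat groups can include one present before Tat. The study describes the libraries as biological replicates from mice.

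Tensins are cytoplasmic adaptors that link the tails of integrins to actin filaments and bind tyrosine-phosphorylated proteins at adhesion sites. Mtss1 has an I-BAR domain, which binds and curves the plasma membrane outward, and also binds actin. Class I myosins are single-headed motors that tie membrane to actin through a lipid-binding tail. Myo1e and Myo1f are the long-tailed members, whose tails also hold an SH3 domain, and Myo1f and Myo1g are made mainly in blood cells, where these motors take part in phagocytosis, adhesion and membrane tension.

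In F/F PBS PMs all 6 genes were well above the limit of 1 TPM, and TPM, which are per length, let them be set beside each other. Myo1f was the most abundant, with a mean of 258.8 TPM, and Myo1g came next with 60.1 TPM. Tns3 (32.6 TPM), Myo1e (28.5 TPM), Mtss1 (24.8 TPM) and Tns1 (24.3 TPM) followed, and the ranges of neighbours among these 4 overlapped. After Tat the 6 genes were spread over a far wider range. Tns1 and Mtss1 were each under 1 TPM in every F/F Tat library, Myo1f was at 9.52% and Myo1e at 33.9% of the F/F PBS mean, and Tns3 and Myo1g stayed at 71.1% and 91.9% of it. In ΔMye Tat PMs, Mtss1, Myo1e, Myo1f and Myo1g were higher than in F/F Tat PMs without overlap, which for Myo1g held only without the scaling given below.

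**Figure D1:**
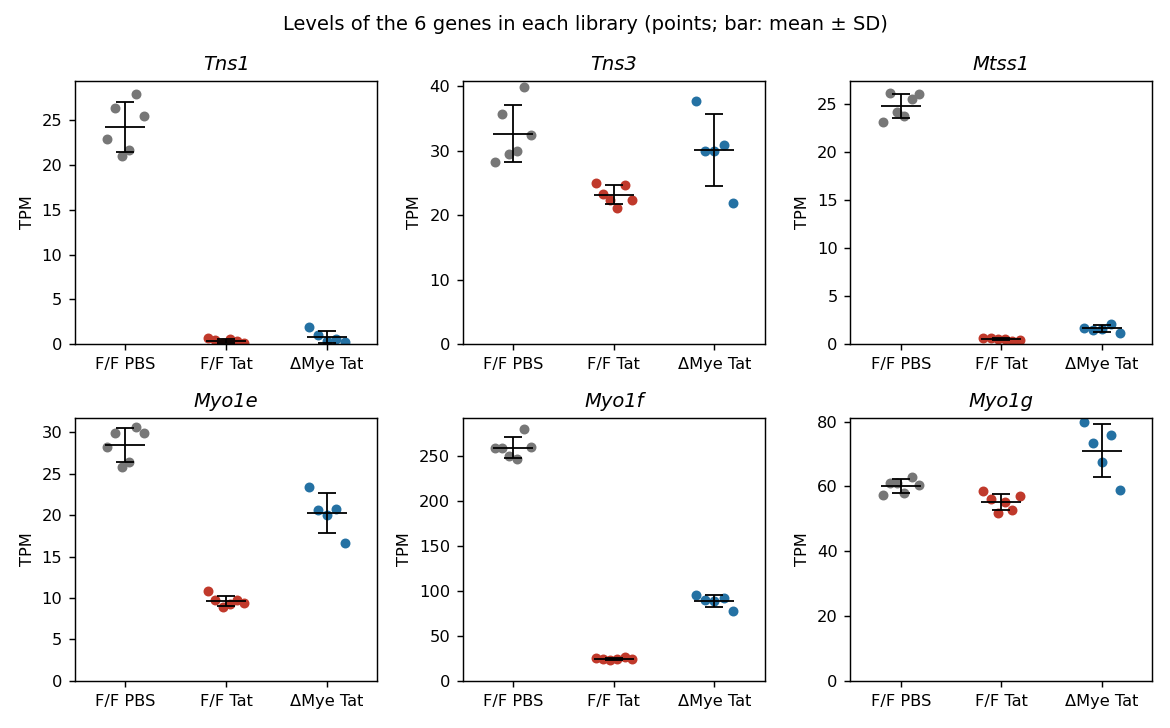
Level (TPM, axis from 0) of each gene in each library (points) with the mean and SD of each group (F/F PBS and F/F Tat, n = 6 each, ΔMye Tat, n = 5). Myo1f lies at 246 to 279 TPM with PBS, 22.99 to 26.5 TPM with Tat and 77.4 to 95.03 TPM in ΔMye Tat, while Myo1g lies between 51.9 and 79.8 TPM in all libraries.

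The libraries differ in ways that touch all of these values. The listed TPM sum to between 889318 and 903576 per library, and 9260 to 10378 genes reach 1 TPM. The median log2 difference over all tested genes was -0.65 from F/F PBS to F/F Tat, 0.22 between ΔMye Tat and F/F Tat and -0.43 between ΔMye Tat and F/F PBS, and became -0.03, 0.01 and -0.01 when libraries were scaled by the median ratio of their genes. Changes of the 6 genes are therefore also given with this scaling, and those of other genes where it altered a direction or a call. Among the ΔMye Tat libraries, which keep the numbers 19 to 23 of their labels, library 19 had higher and library 23 lower values of long transcripts than the others of the group. Across 10348 genes the deviation from the group mean had a Spearman correlation with transcript length of 0.41 in library 19, of -0.48 in library 23, of 0.03 to 0.12 in the other 3 and of -0.34 to 0.38 in the F/F libraries. The differences of the 6 genes between the Tat groups are given with and without libraries 19 and 23. Ikbkb, the targeted gene, was 16.4 ± 2.59 TPM (SD, n = 5) in ΔMye Tat and 23.2 ± 1.44 TPM (SD, n = 6) in F/F Tat (log2 difference -0.51, adjusted p = 4.51e-05, limma), a weak check because TPM cover the whole gene.

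The stretches around the transcription starts of the 3 class I myosins are shown because these 3 close relatives took different levels after Tat. They come from RefSeq on GRCm38.p6 and run 5′ to 3′ from 250 bases before to 50 bases after the start, and capitals mark the only matches to the motifs searched.
Myo1e, chr9:70207100-70207399, plus strand: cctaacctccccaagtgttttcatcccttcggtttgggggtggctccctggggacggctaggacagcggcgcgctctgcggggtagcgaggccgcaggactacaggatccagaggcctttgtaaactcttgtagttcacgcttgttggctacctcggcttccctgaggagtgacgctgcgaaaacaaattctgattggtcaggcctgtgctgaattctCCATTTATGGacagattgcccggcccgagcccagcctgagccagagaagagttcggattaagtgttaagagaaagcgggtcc
Myo1f, chr17:33555457-33555756, plus strand: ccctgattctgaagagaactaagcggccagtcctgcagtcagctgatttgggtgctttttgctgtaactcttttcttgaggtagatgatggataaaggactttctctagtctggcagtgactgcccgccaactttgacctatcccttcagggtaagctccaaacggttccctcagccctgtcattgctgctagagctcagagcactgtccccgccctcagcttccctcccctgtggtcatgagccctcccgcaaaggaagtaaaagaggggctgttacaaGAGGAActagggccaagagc
Myo1g, chr11:6520909-6521208, minus strand: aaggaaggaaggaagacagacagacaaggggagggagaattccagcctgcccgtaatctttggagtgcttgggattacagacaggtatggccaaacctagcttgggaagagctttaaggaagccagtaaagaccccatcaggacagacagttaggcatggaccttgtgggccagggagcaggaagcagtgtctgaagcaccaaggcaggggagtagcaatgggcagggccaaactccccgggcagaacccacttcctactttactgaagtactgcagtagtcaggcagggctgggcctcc
The motifs, searched on both strands and without overlap between different matches, were GAGGAA (a core bound by the myeloid factor PU.1), TGANTCA (AP-1), GGANTTTCC (one NF-κB form) and the CArG box of SRF, a factor that controls many actin genes. Myo1e held a CArG box at -32 to -23 from the start, which 1.63% of the 32851 windows of the table hold. Myo1f held GAGGAA at 31 to 36 bases after the start, as did 28.3% of windows. TGANTCA was in 7.81% and GGANTTTCC in 1.25% of windows, and neither was in the windows of Myo1e, Myo1f, Myo1g, Tns1 or Tns3. These 5 windows divide by base composition. The tensin windows were 75.7% (Tns1) and 70.7% (Tns3) G and C with 37 and 33 CpG, against a median of 52.7% and 7 CpG over all windows, while those of Myo1e, Myo1f and Myo1g were 56.7%, 53.0% and 55.0% with 16, 5 and 2 CpG. Tns1 and Tns3, whose windows were alike in composition, lay far apart in their levels after Tat. No window of Mtss1 was used here.

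Tns1 lies on chromosome 1, 73910231 to 74124449 of GRCm38, minus strand. It was 20.98 to 28.0 TPM (median 24.2) in F/F PBS and 0.101 to 0.655 TPM (median 0.404) in F/F Tat, and the F/F Tat mean was 1.60% of the F/F PBS mean. The ranges were far apart, with every F/F Tat library below every F/F PBS library by a wide margin. The log2 difference was -5.79 (SE 0.37), and this value depends on the constant added to TPM, since it was -4.83 with 0.5 and -4.19 with 1 in place of 0.1. With median-ratio scaling it was -5.23. In ΔMye Tat, Tns1 was 1.93, 1.01, 0.323, 0.623 and 0.259 TPM in libraries 19 to 23. Only libraries 19 and 20 were above the highest F/F Tat library, and the other 3 were within its range. The difference from F/F Tat was 0.79 on the log2 scale (95% interval -0.03 to 1.61, adjusted p = 0.0898, limma) and did not pass the threshold of 0.01 (exact permutation test, two-sided, p = 0.188). Without libraries 19 and 23 it was 0.67 (adjusted p = 0.130, limma), and with median-ratio scaling 0.63 (adjusted p = 0.199). In every ΔMye Tat library Tns1 was still far below the lowest F/F PBS library, and the group mean was 3.42% of the F/F PBS mean.

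Tns3, the second tensin of these cells, lies on chromosome 11, 8431652 to 8664535, minus strand. It was 28.3 to 39.8 TPM (median 31.2) in F/F PBS and 21.1 to 25.0 TPM (median 22.9) in F/F Tat. The groups did not overlap, but the F/F Tat mean was still 71.1% of the F/F PBS mean, and the log2 difference of -0.48 (SE 0.10) was smaller than the median fall of all genes and became 0.15, with overlap, under median-ratio scaling. In ΔMye Tat it was 37.7, 30.0, 29.9, 30.8 and 21.8 TPM, so that 4 of 5 libraries lay above the F/F Tat range and library 23 within it. The difference was 0.36 (95% interval 0.13 to 0.58, adjusted p = 0.00818, limma), and it lost its call with median-ratio scaling (0.14, 95% interval -0.04 to 0.32, adjusted p = 0.180) and without library 19 (0.27, adjusted p = 0.0314). Without both libraries 19 and 23 it was 0.39 (adjusted p = 0.00160, limma). With 1 library left out, the call was also lost without library 6 of F/F PBS, 8, 9, 10 or 12 of F/F Tat, or 20, 21 or 22 of ΔMye Tat (adjusted p from 0.0104 to 0.0196, limma), so it stands at the threshold. The exact permutation test gave p = 0.0195 (two-sided).

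The 2 tensins were of like abundance with PBS and no longer so with Tat. The ratio of Tns1 to Tns3 within a library, which no scaling between libraries can change, ran from 0.703 to 0.812 with PBS (median 0.731) and from 0.00449 to 0.0290 with Tat (median 0.0169) in F/F cells. In ΔMye Tat it ran from 0.0108 to 0.0513 (median 0.0202), which overlapped F/F Tat (exact permutation test, two-sided, p = 0.329).

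Mtss1, on chromosome 15, 58941234 to 59082005, minus strand, shared the low levels of Tns1 with Tat but was steadier between libraries. It was 23.1 to 26.1 TPM (median 24.9) in F/F PBS and 0.365 to 0.645 TPM (median 0.561) in F/F Tat, whose mean was 2.13% of the F/F PBS mean. No library of either group came near the other group, and the log2 difference was -5.33 (SE 0.13), or -4.08 with 1 added in place of 0.1 and -4.74 with median-ratio scaling. In ΔMye Tat it was 1.72, 1.53, 1.62, 2.14 and 1.20 TPM, each above the highest F/F Tat library. The difference from F/F Tat was 1.47 (SE 0.14, adjusted p = 3.83e-08, limma), a 3.11-fold higher mean TPM but under 3-fold on the log2 scale of the test, 1.57 without libraries 19 and 23, and 1.30 with median-ratio scaling. Even so, ΔMye Tat PMs held on average 6.62% of the F/F PBS level. The strand used in counting is not given in the sources used here, and the annotated gene 4930544F09Rik overlaps Mtss1.

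Myo1e, a long-tailed motor found at phagocytic cups and cell junctions, lies on chromosome 9, 70207350 to 70399766, plus strand. It was 25.8 to 30.7 TPM (median 29.0) in F/F PBS and 8.93 to 10.8 TPM (median 9.57) in F/F Tat, a log2 difference of -1.55 (SE 0.07). The groups were well apart, and the difference was -0.92 with median-ratio scaling. In ΔMye Tat it was 23.4, 20.6, 19.97, 20.7 and 16.7 TPM. All 5 libraries lay between the ranges of the other groups, above F/F Tat by 1.06 (SE 0.07, adjusted p = 8.16e-10, limma) and below every F/F PBS library. The difference from F/F Tat was 1.07 without libraries 19 and 23. With median-ratio scaling it was 0.84, that from F/F PBS went from -0.49 to -0.08, and 4 of the 5 libraries lay in the F/F PBS range.

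Myo1f, the long-tailed motor of leukocytes, lies on chromosome 17, 33555707 to 33607764, plus strand. It was 246 to 279 TPM (median 259) in F/F PBS and 22.99 to 26.5 TPM (median 24.5) in F/F Tat, a log2 difference of -3.39 (SE 0.05). Libraries within a group differed little, with SDs of 4.43% and 4.75% of the means, so the separation of the groups was many times their spread. With median-ratio scaling the difference was -2.76. In ΔMye Tat it was 95.03, 89.9, 88.5, 92.2 and 77.4 TPM. That was above F/F Tat by 1.84 (SE 0.05, adjusted p = 8.51e-16, limma), a 3.60-fold higher mean and the one difference of the 6 genes between the Tat groups that passed both the adjusted p and a fold change over 3. The share of all tested genes that passed both is not given here. The difference of Myo1f was 1.87 without libraries 19 and 23, and 1.63 with median-ratio scaling. The Myo1f mean in ΔMye Tat was 34.3% of the F/F PBS mean, and no ΔMye Tat library reached the PBS range.

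Myo1g, a short-tailed motor of blood cells, lies on chromosome 11, 6506548 to 6520965, minus strand. It was 57.4 to 63.0 TPM (median 60.7) in F/F PBS and 51.9 to 58.5 TPM (median 55.6) in F/F Tat, and these ranges overlapped. The log2 difference was -0.12 (SE 0.06) and became 0.51, without overlap, under median-ratio scaling. In ΔMye Tat it was 79.8, 73.3, 67.6, 75.7 and 58.9 TPM, of which library 23 was only just above the highest F/F Tat library. The difference from F/F Tat was 0.36 (SE 0.06, adjusted p = 5.23e-05, limma), was 0.39 without libraries 19 and 23, and did not pass with median-ratio scaling (0.14, 95% interval 0.05 to 0.24, adjusted p = 0.0136).

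**Figure D2:**
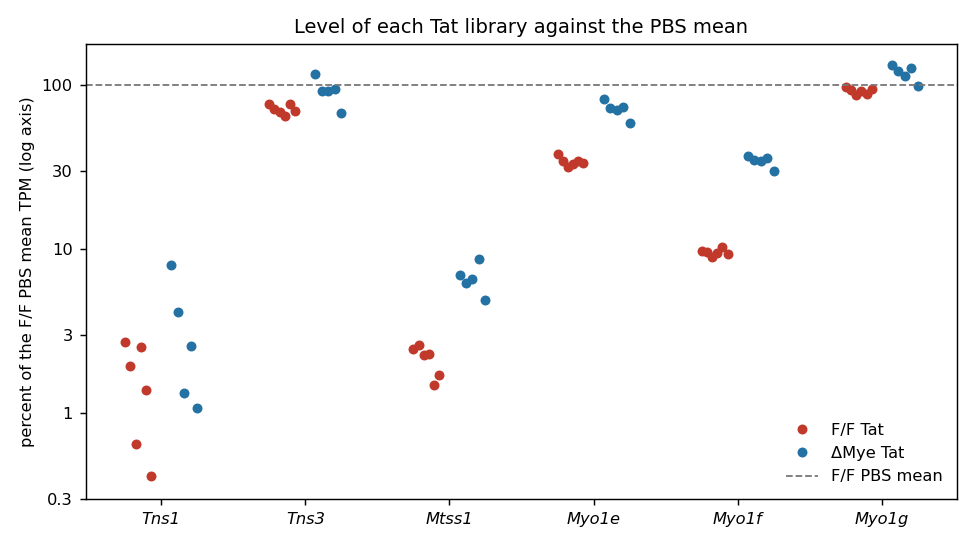
TPM of each F/F Tat (red, n = 6) and ΔMye Tat (blue, n = 5) library as a percent of the F/F PBS mean of the gene (dashed line, 100), on a log axis. The F/F Tat means are 1.60% for Tns1, 2.13% for Mtss1, 9.52% for Myo1f, 33.9% for Myo1e, 71.1% for Tns3 and 91.9% for Myo1g, and the ΔMye Tat means are higher for each gene.

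The 3 myosins changed order with Tat. Within a library, Myo1f was 4.10 to 4.51 times Myo1g (median 4.27) in F/F PBS and 0.423 to 0.503 times Myo1g (median 0.441) in F/F Tat, so that Myo1g became the more abundant of the pair. In ΔMye Tat the ratio was 1.19, 1.23, 1.31, 1.22 and 1.31, between the other groups, with Myo1f again the higher in each library. The log2 ratio differed between the Tat groups by 1.49 (p = 0.00216 in a two-sided exact permutation test, the lowest that groups of 6 and 5 allow). The ratio of Myo1f to Myo1e ran from 8.66 to 9.70 with PBS (median 9.14), from 2.32 to 2.73 in F/F Tat (median 2.56) and from 4.06 to 4.64 in ΔMye Tat (median 4.43), and differed between the Tat groups by 0.78 on the log2 scale (exact permutation test, p = 0.00216). The ratio of Myo1e to Myo1g was 0.423 to 0.494, 0.166 to 0.185 and 0.274 to 0.295 in the same order of groups, with a log2 difference of 0.71 between the Tat groups (exact permutation test, p = 0.00216). The 3 ratios were computed beside those of Tns1 and of Mtss1 to Tns3, 5 in all. That of Mtss1 to Tns3 also differed between the Tat groups (1.28 on the log2 scale, exact permutation test, p = 0.00216).

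Between the Tat groups, 5 of the 6 genes passed an adjusted p under 0.01 as higher in ΔMye Tat and 0 as lower, where 38.8% of all tested genes passed as higher and 8.87% as lower, and 5 also passed without libraries 19 and 23. With median-ratio scaling Mtss1, Myo1e and Myo1f passed as higher, 3 of 6, where 16.4% of all tested genes passed as higher and 18.8% as lower. The comparison shares the F/F Tat libraries with the one whose results were known when the genes were listed, and the same libraries give the low values in both. Exact permutation tests gave p = 0.00216 (two-sided) for Mtss1, Myo1e, Myo1f and Myo1g. None of the p-values and intervals of these genes or their ratios between the Tat groups allows for that choice of genes. Genes listed for low values in F/F Tat tend to look higher in the other group. No ΔMye Tat value of Tns1, Mtss1 or Myo1f reached the F/F PBS range, with or without the scaling. Of 5 values, 0 of Myo1e, 4 of Tns3 and 1 of Myo1g fell within it as deposited, and 4, 1 and 0 with the scaling. How often the values of all tested genes fell within that range is not given here.

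The ΔMye Tat libraries differed among themselves along these genes. Library 23 was the lowest of the 5 for all 6 genes, as it was for 43.7% of all tested genes, and it also had the lowest Ikbkb at 12.8 TPM. Library 19 was the highest for 5 genes, all but Mtss1, as for 38.4% of tested genes, and had the highest Ikbkb at 19.9 TPM. With median-ratio scaling library 23 was still the lowest for all 6, against 27.8% of tested genes. Of the 6 genes, Tns1 and Tns3 have their longest transcripts, at 9966 and 7483 bases, in the longest quintile of the tested genes, and the other 4 (3831 to 4938 bases) in the quintile below it. The part of transcript length in the order of the libraries was not tested for single genes. Between the groups length moved little in the Tat comparison of genotypes, with a median log2 difference of 0.23 in the longest and 0.22 in the shortest quintile. From F/F PBS to F/F Tat these medians were -0.51 and -0.75.

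**Figure D3:**
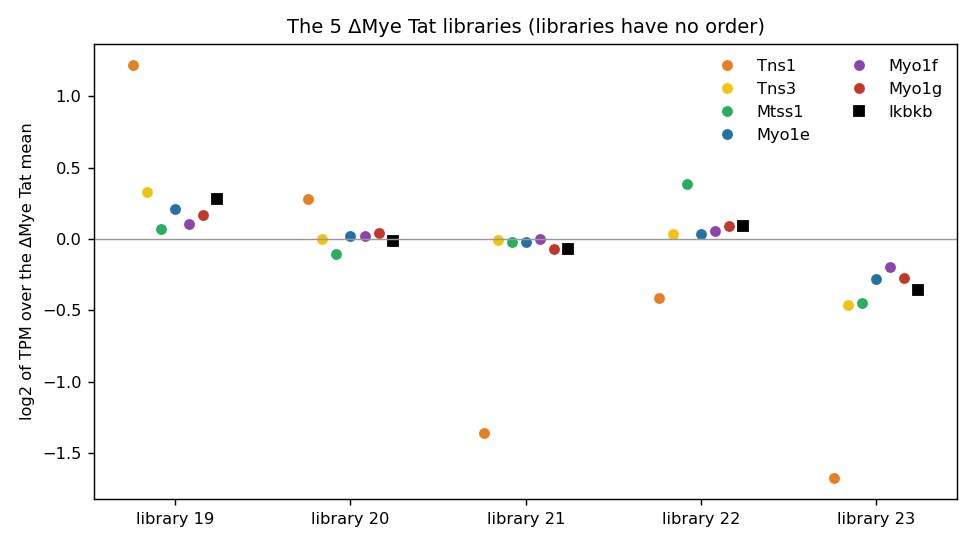
log2 of TPM over the ΔMye Tat mean (0 on the axis) for the 6 genes and Ikbkb (black squares) in each of the 5 ΔMye Tat libraries. Library 23 holds the lowest point of every gene, and Tns1 (1.93 TPM in library 19, 0.259 TPM in library 23) is spread the most.

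Deviations from the group means also ran together over the 17 libraries. They correlated with a Pearson r of 0.74 to 0.89 among Tns3, Myo1e, Myo1f and Myo1g, which fell to 0.42 to 0.77 with median-ratio scaling, while for Mtss1 with Myo1f r was 0.30, or -0.02 with the scaling. These values are descriptive, since the libraries share the differences in scale and transcript length given above.

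The close relatives of the 6 genes were mostly low. Tns2 and Tns4, the other tensins, did not reach the limit for testing, with means of at most 0.997 TPM in any group, so Tns1 and Tns3 were the only tensins tested. Tns2 averaged 0.326, 0.0383 and 0.0822 TPM in F/F PBS, F/F Tat and ΔMye Tat. Tns4 averaged 0.997, 0.0711 and 0.0799 TPM in the same order, and these low differences were not tested. Of the I-BAR family only Baiap2 (IRSp53), a partner of Rac and of WAVE, was tested beside Mtss1. It was 20.8 ± 1.60 TPM (SD, n = 6) in F/F PBS, 14.6 ± 0.871 (n = 6) in F/F Tat and 12.0 ± 0.960 TPM (n = 5) in ΔMye Tat. Its difference between the Tat groups was -0.29 (adjusted p = 8.70e-04, limma), opposite in sign to that of Mtss1, and its difference with Tat was -0.50, which turned to 0.13 with median-ratio scaling. Of the other class I myosins, Myo1c is short-tailed and widely made. It was 64.5 ± 5.33, 46.4 ± 1.18 and 55.6 ± 5.82 TPM in F/F PBS, F/F Tat and ΔMye Tat, and its difference between the Tat groups of 0.25 (adjusted p = 0.00218, limma) was 0.04 with median-ratio scaling (adjusted p = 0.470). Myo1c fell with Tat by 0.47 on the log2 scale as deposited (adjusted p = 5.54e-07, limma) which turned to 0.16 with median-ratio scaling. Myo1d, at 0.415, 0.866 and 0.873 TPM, was under the limit for testing.

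**Figure D4:**
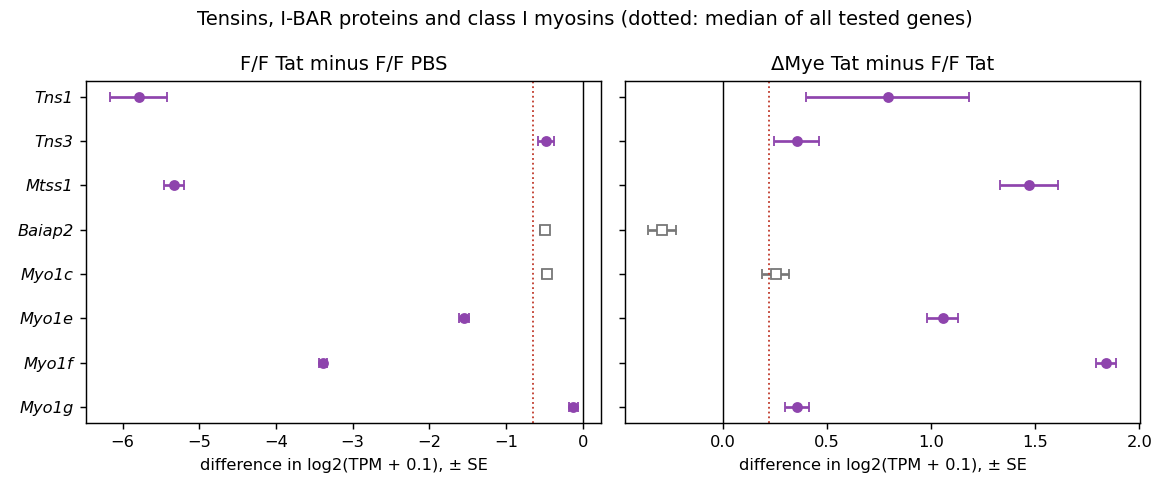
Difference in log2(TPM + 0.1) with its SE from limma for the 6 genes (filled) and their relatives Baiap2 and Myo1c (open), F/F Tat minus F/F PBS at left and ΔMye Tat minus F/F Tat at right, with the median of all tested genes (dotted, -0.65 and 0.22). Tns1 and Mtss1 lie lowest at left (-5.79 and -5.33), and Myo1f (1.84) and Baiap2 (-0.29) mark the ends at right.

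A wider set of 106 genes of the same machinery, none of them among the 6, was listed by role with earlier results of these data known. Of these 76 were tested. With Tat, 1 passed both the adjusted p and a fold change over 3 as higher and 11 as lower (1.32% and 14.5%), where 5.21% and 19.4% of all tested genes passed. With median-ratio scaling these were 4 and 7, beside 8.51% and 9.76% of all genes. At the adjusted p alone 18 were higher and 48 lower, beside 16.97% and 67.6% of all genes, and with median-ratio scaling 34 were higher and 26 lower, beside 37.1% and 38.1%. Between the Tat groups 46 were higher in ΔMye Tat and 9 lower (60.5% and 11.8%), where 38.8% and 8.87% of all tested genes passed. With median-ratio scaling these were 22 and 18, beside 16.4% and 18.8% of all genes. The median log2 difference of the 76 genes was -0.50 with Tat and 0.28 between the Tat groups, beside -0.65 and 0.22 over all tested genes.

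The adaptors that sit with tensins at integrin adhesions split with Tat. Zyx (zyxin), which gathers at adhesions under tension, was the one gene of the set above the fold threshold, rising from 110.8 ± 5.23 TPM to 533.5 ± 20.9 TPM (2.27, adjusted p = 2.94e-19, limma). It was 418.4 ± 38.5 TPM in ΔMye Tat, lower than in F/F Tat (-0.35, adjusted p = 7.11e-06, limma). Git1, an adaptor of paxillin, rose by 1.11 with Tat and was lower in ΔMye Tat (-0.52). Sorbs3 (vinexin), which binds vinculin, fell from 37.4 ± 1.75 to 3.67 ± 0.206 TPM (-3.32, adjusted p = 6.37e-20, limma), and Arhgef6, an exchange factor for Rac and Cdc42, fell from 12.3 to 1.64 TPM (-2.84). Both were higher in ΔMye Tat, by 0.91 (adjusted p = 1.24e-09) and 1.19 (adjusted p = 6.98e-06, limma). Of the 22 tested adaptors, 6 were higher and 13 lower with Tat at the adjusted p alone, and 13 were higher and 4 lower in ΔMye Tat. Both majorities turned with median-ratio scaling, to 11 higher and 8 lower with Tat and 5 higher and 6 lower in ΔMye Tat. Over all tested genes 67.6% were lower with Tat and 38.8% higher in ΔMye Tat, or 38.1% and 16.4% with the scaling. Stard8, the tested member of the RhoGAPs that bind tensins, did not pass with Tat (9.17 and 9.88 TPM) except with median-ratio scaling (0.73, adjusted p = 2.53e-10, limma), and was lower in ΔMye Tat (-0.40, adjusted p = 6.23e-05, limma).

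Of the 8 tested myosins of other classes, 7 fell with Tat at the adjusted p alone and 0 rose, and 7 were higher in ΔMye Tat, where 67.6% and 38.8% of all tested genes did so. With median-ratio scaling these were 5 and 5, beside 38.1% and 16.4% of all genes. Myo7a fell from 6.75 ± 0.975 to 0.935 ± 0.164 TPM (-2.73) and Myo18a from 12.7 ± 0.806 to 2.09 ± 0.369 TPM (-2.56), and both were higher in ΔMye Tat (0.92 and 0.88). Myo9b, a motor that is also a RhoGAP, fell by 0.83 on the log2 scale but did not pass with median-ratio scaling (-0.20, adjusted p = 0.0321, limma). Myo10, the motor of filopodia, did not pass with Tat (-0.25, or 0.36 with median-ratio scaling) but was 7.42 ± 1.63 TPM in ΔMye Tat and 3.24 ± 0.609 TPM in F/F Tat (1.16, adjusted p = 3.99e-06, limma).

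Long-tailed class I myosins recruit the machinery that nucleates actin branches. All 9 subunits of the Arp2/3 complex were tested and 0 passed the fold threshold with Tat. Actr2 rose by 0.51 and Arpc3 by 0.33, while Arpc5l fell by 1.34 and Arpc1b by 0.69 on the log2 scale, the last of which was -0.06 with median-ratio scaling. Among 16 tested WASP and WAVE regulators, Abi3, a subunit of the WAVE complex, was the 1 gene past the fold threshold with Tat. With PBS it was 12.9 ± 1.04 TPM, and with Tat 0.676 ± 0.380 TPM in F/F and 2.17 ± 0.923 TPM in ΔMye cells, with log2 differences of -4.23 (adjusted p = 8.25e-11, limma) and 1.60 (adjusted p = 2.69e-04, limma). Cyfip2 of the same complex fell by 1.44 and was higher in ΔMye Tat by 1.09. Nckap1 and Wipf2 rose with Tat by 0.63 and 0.49 and did not pass between the Tat groups.

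Podosomes are the actin-rich adhesions of macrophages, and 4 of 12 tested podosome genes passed the fold threshold with Tat as lower and 0 as higher, beside 19.4% and 5.21% of all tested genes. With median-ratio scaling 2 were lower and 1, Sh3pxd2b, was higher, beside 9.76% and 8.51% of all genes. Gsn (gelsolin), which severs filaments, fell from 48.4 ± 1.11 to 6.07 ± 0.177 TPM (-2.97, adjusted p = 6.73e-20, limma) and was 10.9 ± 1.21 TPM in ΔMye Tat. Fmnl1, a formin of leukocytes, fell from 20.3 to 3.56 TPM (-2.48) and was 6.67 TPM in ΔMye Tat. Sh3pxd2b, a scaffold of podosomes, and Cttn (cortactin) rose by 0.97 and 0.75. Neither passed between the Tat groups as deposited, but Sh3pxd2b passed as lower in ΔMye Tat with median-ratio scaling (-0.38, adjusted p = 1.54e-04, limma). Of the 5 proteins that link membrane to cortex, Nf2 (merlin) and Ezr (ezrin) fell with Tat by 1.18 and 0.66, the latter by only 0.03 (-0.03) with median-ratio scaling. Both were higher in ΔMye Tat, Ezr at 92.0 ± 2.28 beside 54.9 ± 1.85 TPM (0.75, adjusted p = 1.58e-12, limma). Msn (moesin) and Slc9a3r1 rose by 0.64 and 0.39. Between the Tat groups they did not pass as deposited, and both passed as lower in ΔMye Tat with median-ratio scaling (-0.35 and -0.30, adjusted p = 5.71e-08 and 7.68e-06, limma).

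**Figure D5:**
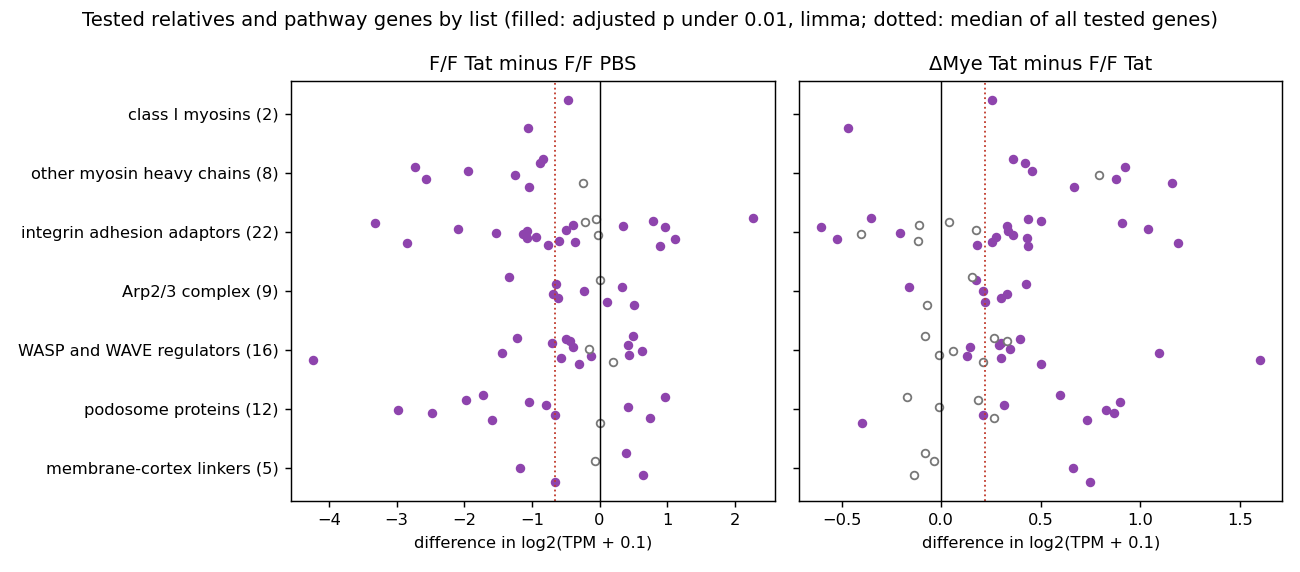
Difference in log2(TPM + 0.1) of each tested gene in the 7 lists with more than 1 tested gene (number in brackets), F/F Tat minus F/F PBS at left and ΔMye Tat minus F/F Tat at right, filled where the adjusted p of limma is under 0.01, with the median of all tested genes dotted. Zyx (2.27) and Abi3 (-4.23) are the ends at left, and 7 of the 8 other myosins are filled at the right of 0 in the right panel.

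The genes whose log2 values over the 17 libraries were most like those of each gene are given with Pearson r as a description, since the points share 3 groups and their library differences. Mmp19 (0.992), E330009J07Rik (0.989) and Slc38a10 (0.987) were most like Tns1, with 1220 genes past 0.95. Diaph1 (0.990), a formin, Abr (0.983) and Spen (0.978) were most like Tns3, with 22 genes past 0.95. Sorbs3, the vinculin-binding adaptor above, was the most like Mtss1 of all tested genes (0.998), followed by C1galt1 and Hsd17b4, but 2606 genes passed 0.95 with Mtss1, so the pattern is a common one. Asap1 (0.995), an Arf GAP of adhesions and podosomes, Myof (0.994) and Adam9 (0.993) were most like Myo1e, with 422 genes past 0.95. Galnt6, Mapk14 and Atic (0.998 each) were most like Myo1f, with 1438 genes past 0.95. With Myo1g, whose group means lay close together (60.1, 55.2 and 71.1 TPM in F/F PBS, F/F Tat and ΔMye Tat), 1 gene passed 0.95, Mapkapk3 (0.971). Pik3r5 (0.946) and Myo10 (0.944) came next. All of these r were computed on the values as deposited, without median-ratio scaling.

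All 10 macrophage markers were detected, with a summed level of 26226 to 27197 TPM in F/F PBS, 10575 to 11154 TPM in F/F Tat and 8409 to 8696 TPM in ΔMye Tat, most of it Lyz2, the gene that carries the Cre. Without Lyz2 the other 9 summed to 4220 to 4611, 3663 to 3908 and 4079 to 4254 TPM, and 8 of the 9 had a higher mean in ΔMye Tat than in F/F Tat. Some of the 6 genes are also made in connective tissue, and the 12 markers of mesothelial cells and fibroblasts summed to 33.6 to 45.4 TPM, 31.3 to 36.8 TPM and 18.5 to 23.4 TPM in the same order. That sum was lower in ΔMye Tat than in F/F Tat without overlap. B cell markers (8 genes) summed to 14.1 to 29.3, 12.6 to 17.2 and 9.40 to 14.9 TPM, and T cell markers (8 genes) to 7.43 to 14.3, 6.68 to 8.18 and 13.6 to 16.3 TPM, highest in ΔMye Tat. Neutrophil markers (8 genes, Ngp at 0 in every library) summed to 57.6 to 68.9, 66.9 to 78.03 and 87.9 to 106.4 TPM, also highest in ΔMye Tat. Most of that sum was S100a8 (means 53.8, 68.6 and 91.4 TPM). In ΔMye Tat 6 of the 8 genes had means under 1 TPM. S100a9 (0.842 and 0.716 TPM) and Retnlg (0.671 and 0.298 TPM) had lower means in ΔMye Tat than in F/F Tat, while Ly6g, Cxcr2, Camp and Ltf had higher ones. Resident macrophage markers summed to 30.4 to 37.97, 31.5 to 38.2 and 18.1 to 23.7 TPM. Mast cell markers summed to 33.5 to 46.3, 32.3 to 44.01 and 24.9 to 31.6 TPM. Both sums were lower in ΔMye Tat than in F/F Tat without overlap. Timd4 made up most of the gap in the resident sum (ΔMye Tat mean 7.09 TPM, F/F Tat mean 21.7 TPM). Selp and Lyve1 also had lower ΔMye Tat means. Gata6 (0.475 beside 0.282 TPM) and Icam2 (12.9 beside 12.3 TPM) had higher ones, so the resident markers did not all go 1 way. The part of other cells in the results was not tested. In bulk RNA, fewer cells that make a gene and less of its RNA per cell cannot be told apart.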

How the data were processed

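RNA-Seq values of 17 libraries were used, with groups from the sample labels. The authors ran Salmon against the Ensembl mouse annotation (GRCm38) and deposited TPM for each symbol, with no stated scaling across libraries, so read depth is unknown. The authors' own test, edgeR with TMM and a likelihood ratio test at FDR under 1% and a fold change over 3, used values that were not used here. The labels place cell collection 3 days after 1 mL of 3% thioglycollate, and the methods differ on the day.

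The test was limma 3.58.1 (R 4.3.3) on log2(TPM + 0.1) for genes that reached 1 TPM in 5 or more libraries, as one fit of 3 groups (eBayes with trend, residual df 14), with Benjamini-Hochberg adjustment over all 10451 genes, after a check on simulated data. A fold change is on that scale and understates low genes. Median-ratio scaling divided each library by the median ratio of its genes to their geometric mean. Coordinates and 31-base sequences shared between genes (at most 0.647% for the 6 genes) came from GENCODE M21. Alternatives were pseudocounts, filters, scaling, a fit of the compared groups, robust weights and each library left out. Leaving out both libraries 19 and 23 was added after the data were seen.

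The 6 genes, the gene lists, the markers and the rule for naming genes were chosen with earlier results of these data known. Named were the 6 genes, tested relatives in the 3 families, the 2 highest and 2 lowest log2 differences with Tat in each other list, the 3 genes most like each of the 6, and Ikbkb. Some items of the design and of this rule are not reported here. Mtss2 was found under its synonym Mtss1l. Marker lists of NK cells and eosinophils summed to at most 9.17 and 2.41 TPM in any library. Other steps used scipy 1.17.1, pandas 2.3.3 and numpy 2.4.6 under Python 3.11.15, with plots from matplotlib 3.10.9.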

Additional observations from a re-analysis of the deposited data

How the results depend on the processing

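The count of the 6 genes higher in ΔMye Tat than in F/F Tat (5) was 3 with median-ratio scaling, 1 with a fold change over 3 required, and 4 to 5 with each library left out. For the count with the fold change, the share of all tested genes is not given here. The count of related genes past the fold threshold with Tat (1 higher, 11 lower) was 4 and 7 with median-ratio scaling and 18 and 48 at the adjusted p alone, and 1 and 11 to 12 with each library left out. Between the Tat groups the related genes (46 higher, 9 lower) were 22 and 18 with median-ratio scaling, and 41 to 48 and 8 to 10 with each library left out. Directions with Tat reversed for Tns3 (0.15) and Myo1g (0.51) with median-ratio scaling. Tns3 between the Tat groups lost its call in 13 of 26 alternatives, at adjusted p up to 0.0314 with 1 library left out, and Myo1g in 1 of 26. Mtss1, Myo1e and Myo1f kept their calls in all 26. The cause was not tested. Tns1 passed in none of its 26 (adjusted p 0.0244 to 0.303 with 1 library left out). Tns1 and Mtss1 with Tat are near the pseudocount, so their differences from PBS are limited by it. Dixon's test marked no library in 18 groups of values. No paired analysis was possible because the groups share no replicate numbers.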
